A study of Mus musculus with 25 samples.

Results

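Elane, Prtn3, Mpo and Ctsg encode the enzymes that fill azurophil granules, the first granules that a developing neutrophil or monocyte makes. These 4 genes were chosen by name out of the 22439 genes in the count matrices, and all 4 were measured. They were chosen because their levels differed between cell types, clusters and time points in these data, so every level by those labels is given as a description with no test.

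The data were single-cell RNA-seq counts of 30958 myeloid cells, sorted out of mouse spinal cord and held in 25 libraries. Libraries came from cord after laminectomy alone, the control operation (Ctrl, 2 libraries), or 1 day (D1, 5), 2 days (D2, 4), 3 days (D3, 7), 10 days (D10, 5) or 21 days (D21, 2) after injury. Per the labels, each held the tissue of 1 to 3 mice and a segment of 5 mm. The labels give the sex of the mice of each library but no age.

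All mice carried Cx3cr1CreERT2, an inducible Cre recombinase at the locus of the fractalkine receptor Cx3cr1, and all cells were sorted for YFP. In 12 libraries the mice had that allele alone and all YFP+ cells were kept (mixed). The other mice also carried R26tdTomato, a red reporter (RFP) that Cre turns on. Their RFP+/YFP+ cells were taken as resident (5 libraries) and their RFP-/YFP+ cells as infiltrating (7). The label of 1 more D3 library of this strain disagrees with its title, which says infiltrating while the sort label says RFP+/YFP+. It is called D3_conflict 1 and was left out of the test between sorts. Libraries labelled female were Ctrl_mixed 1, D1_infiltrating 1, D2_infiltrating 1, D2_mixed 1, D3_conflict 1, D3_resident 1, D10_infiltrating 1, D10_resident 1 and D21_mixed 1. The others were labelled male. Cells without YFP were not collected, so the data cover only cells that passed this gate.

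Neutrophil elastase (Elane), proteinase 3 (Prtn3) and cathepsin G (Ctsg) are serine proteases of one family. Myeloperoxidase (Mpo) is not a protease: it makes hypochlorous acid from hydrogen peroxide and chloride. In bone marrow these genes are transcribed in granulocyte-monocyte progenitors and promyelocytes and are switched off as the cells mature, so that circulating neutrophils carry the proteins with little of the RNA. Transcription factors known to drive them include PU.1 (Spi1), C/EBP proteins, Myb and Runx1.

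On GRCm38 with GENCODE M21, Prtn3 (ENSMUSG00000057729.12, chr10:79874476-79883174, plus strand, 5 exons) and Elane (ENSMUSG00000020125.7, chr10:79886247-79888215, plus strand, 5 exons) are neighbours with 3072 bases between them. Cfd, the complement factor D gene, follows Elane after 2637 bases. Ctsg (ENSMUSG00000040314.2, chr14:56099881-56102574, minus strand, 5 exons) and Mpo (ENSMUSG00000009350.13, chr11:87793581-87804413, plus strand, 14 exons) lie elsewhere.

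Because the 4 genes were found together in a small set of cells, the 250 bases before each RefSeq start site on GRCm38.p6 are shown, at chr10:79886062-79886311 for Elane, chr10:79879417-79879666 for Prtn3, chr11:87793534-87793783 for Mpo and chr14:56102575-56102824 (minus strand) for Ctsg. Each runs 5′ to 3′ on the gene strand, and capitals mark the motif matches. RefSeq places some starts elsewhere than GENCODE.
Elane: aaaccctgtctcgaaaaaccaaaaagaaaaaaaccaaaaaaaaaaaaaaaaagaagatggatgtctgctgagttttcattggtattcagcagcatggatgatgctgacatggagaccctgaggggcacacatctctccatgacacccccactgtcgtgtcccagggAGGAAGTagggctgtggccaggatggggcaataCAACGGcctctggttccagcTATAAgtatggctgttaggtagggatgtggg
Prtn3: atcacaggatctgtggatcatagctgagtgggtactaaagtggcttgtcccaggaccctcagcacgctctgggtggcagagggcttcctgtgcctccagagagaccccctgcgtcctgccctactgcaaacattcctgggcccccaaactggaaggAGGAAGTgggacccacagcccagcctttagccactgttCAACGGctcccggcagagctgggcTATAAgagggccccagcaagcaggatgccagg
Mpo: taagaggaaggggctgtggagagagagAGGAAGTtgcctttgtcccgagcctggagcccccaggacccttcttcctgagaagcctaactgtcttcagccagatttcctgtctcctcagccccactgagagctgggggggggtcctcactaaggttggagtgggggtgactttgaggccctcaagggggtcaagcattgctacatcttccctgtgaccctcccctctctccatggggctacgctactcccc
Ctsg: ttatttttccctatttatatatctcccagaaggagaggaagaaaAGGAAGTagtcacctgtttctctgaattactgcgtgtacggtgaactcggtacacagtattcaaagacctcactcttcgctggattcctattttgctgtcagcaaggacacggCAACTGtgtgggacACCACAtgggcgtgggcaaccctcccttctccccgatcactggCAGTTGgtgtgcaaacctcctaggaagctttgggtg
The motifs were chosen after the sequences had been seen. AGGAAGT, a core that PU.1 and other ETS factors bind, was found in 4 of the 4 windows and in 7.69% of 32851 RefSeq promoter windows of that length. It began 84, 94, 223 and 206 bases before the start of Elane, Prtn3, Mpo and Ctsg. CAACNG, a Myb core, was found in Elane, Prtn3 and Ctsg, where 29.3% of all windows held it. In Elane and Prtn3 it began 51 and 56 bases before the start. Ctsg held it at 93 bases and, on the other strand (printed CAGTTG), at 36. TATAA on the gene strand was found in Elane (31 bases before the start) and Prtn3 (32), and in 16% of all windows. TGTGGT, a Runx core, was found in Ctsg alone among the 4, on the other strand (printed ACCACA), and in 14% of all windows. TTGCNNAA, a C/EBP half-palindrome pattern, was found in none of the 4 and in 9.56% of all windows. Apart from TATAA both strands were searched, and a match is a description of letters, not of binding.

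A library held between 155 and 3800 cells and between 486649 and 33204422 UMIs (unique molecular identifiers, 1 per captured RNA molecule), with a median of 1577 to 11233 UMIs per cell. Counts are given as CPM, counts scaled to a library total of 1000000 UMIs, and are not divided by gene length because the assay tags one end of each molecule. The deposited table gives 16 numbered clusters and 4 unnamed cell type codes. By marker genes, the codes were microglia (13289 cells, 9 of 9 markers), macrophages including monocytes (12841 cells, 4 of 8 monocyte and 4 of 8 macrophage markers), dendritic-like cells (2712, 6 of 8) and neutrophil-like cells (2116, 8 of 8, with 2 of 5 erythroid markers). The barcodes of 127 droplets occurred in 2 libraries each (254 cells). Of these cells, 8 had a UMI of the 4 genes and 0 had UMIs of all 4.

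Prtn3 was the most abundant and most widely found of the 4 genes, with 6822 UMIs in 1159 cells. Elane gave 1953 UMIs in 60 cells, Mpo 1371 in 53 cells and Ctsg 1240 in 133 cells. At least 1 UMI of any of the 4 was found in 1303 cells, or 4.21%. Of those cells, 1247 had UMIs of 1 gene only, 30 of 2 genes, 6 of 3 genes and 20 of all 4.

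Those 20 cells, 0.0646% of all cells, held most of the RNA of all 4 genes. They carried 96.8% of all Elane UMIs, 97.2% of Mpo, 87.9% of Ctsg and 69.9% of Prtn3. The deposited table puts all 20 in the macrophage code, 19 of them in cluster 10 and 1 in cluster 13. Cluster 10 held 182 cells.

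The 20 cells came from 5 libraries. D10_mixed 2 had 9 of them (0.896% of its cells, exact 95% interval 0.410 to 1.69), D21_infiltrating 1 had 5 (3.23%, 1.06 to 7.37) and D10_mixed 1 had 4 (0.330%). D1_infiltrating 1 and D3_conflict 1 had 1 each. The 2 late time points thus held 18 of the 20 among 5060 cells, and the earlier ones 2 among 25898. D21_mixed 1, the other D21 library, had 0 such cells, although it held 78 cells of the macrophage code. It differs from D21_infiltrating 1 in sex, strain, sort and sequencing pool. The late libraries with such cells were all male. Of the other late libraries, D10_infiltrating 1, D10_resident 1 and D21_mixed 1 were female and D10_infiltrating 2 male. The part of sex was not tested. Intervals cover counting error only. The sequencing pool of both D10 mixed libraries supplied 13 of the 20, and 2 other libraries of that pool, Ctrl_mixed 1 and D10_infiltrating 2, held 0.

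In cluster 10, 35 cells were from D10 or D21, of which 28 had a UMI of any of the 4 genes and 17 had all 4. Of its 147 earlier cells, 11 had any and 2 had all 4. D3_mixed 3 alone gave 107 of these earlier cells, of which 6 had any and 0 had all 4. The cluster was therefore mixed, and most of its cells carried none of the 4 genes.

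**Figure D1:**
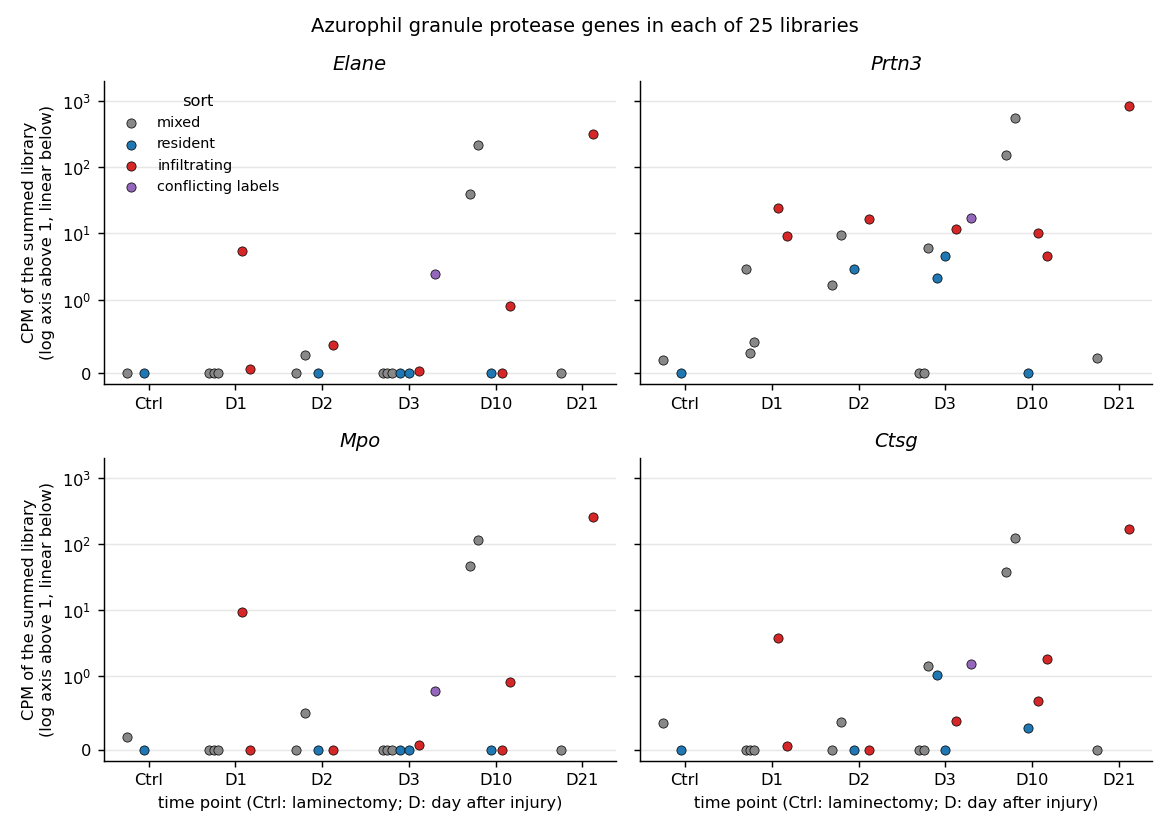
CPM of Elane, Prtn3, Mpo and Ctsg in the summed counts of each of the 25 libraries (1 point each) by time point, coloured by sort; the y axis is logarithmic above 1 CPM and linear below. The 3 highest points of every panel are D21_infiltrating 1, D10_mixed 2 and D10_mixed 1, and Prtn3 alone lies above 1 CPM in most D1, D2 and D3 libraries.

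At the level of libraries the 4 genes were near 0 in the control cord. All cells of the control libraries (1429 and 458) were of the microglia code. Microglia had little Prtn3 after injury too, at 0.320, 0.402, 1.10, 2.42 and 0 CPM for D1, D2, D3, D10 and D21. The part of cell composition in the difference from control was not tested. The 2 control libraries together held 0 Elane, 1 Prtn3, 1 Mpo and 2 Ctsg UMIs, all from Ctrl_mixed 1. In the 5 D1 libraries Prtn3 had a lowest value of 0.274, a median of 2.86 and a highest of 24.4 CPM. In the 4 D2 libraries it was 1.65 to 16.5 CPM, and in the 7 D3 libraries 0 to 16.9 CPM with a median of 4.58.

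At D10 Prtn3 was 554 CPM in D10_mixed 2 and 151 in D10_mixed 1, against 10.3 and 4.59 in the infiltrating libraries and 0 in the resident one. At D21 it was 827 CPM in the infiltrating library and 0.201 in the mixed one, which was 1 UMI. The libraries of one time point thus lay far apart, and the high ones were those with 4 or more cells that had all 4 genes.

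Elane followed the same libraries. It was 320 CPM in D21_infiltrating 1, 219 in D10_mixed 2 and 38.9 in D10_mixed 1. The next highest values were 5.39 in D1_infiltrating 1 and 2.46 in D3_conflict 1, the 2 libraries with 1 such cell each. Every other library lay below 1 CPM for Elane, and 15 of the 25 libraries had 0 UMIs.

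Mpo was 255 CPM in D21_infiltrating 1, 112 in D10_mixed 2, 46.9 in D10_mixed 1 and 9.18 in D1_infiltrating 1, and below 1 CPM in every other library. Ctsg was 169, 122 and 37.9 CPM in the same 3 late libraries and 3.73 in D1_infiltrating 1. Ctsg reached 1.84 CPM in D10_infiltrating 2, 1.51 in D3_conflict 1, 1.42 in D3_mixed 3 and 1.05 in D3_resident 1, the last from 1 UMI.

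Without the 20 cells, Prtn3 in the macrophage code summed to 13.8 CPM for D1, 12.1 for D2 and 11.8 for D3, with 21.0 CPM for D10 and 61.6 for D21. With them the D10 and D21 values were 529 and 893. The D10 and D21 sums without these cells depended on single libraries. D10_mixed 1 gave 66 of the 138 UMIs at D10, and without it the D10 value was 11.7 CPM, below D1 and D2. It was 41.4 CPM without D10_infiltrating 1, and the D1 value was 7.74 CPM without D1_infiltrating 1. All 50 UMIs at D21 came from D21_infiltrating 1, and the other D21 library had 0. The sums also rest on single cells that had 3 of the 4 genes. Such cells held 24 and 8 of the 50 UMIs at D21, and 33 and 4 of the 138 at D10.

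**Figure D2:**
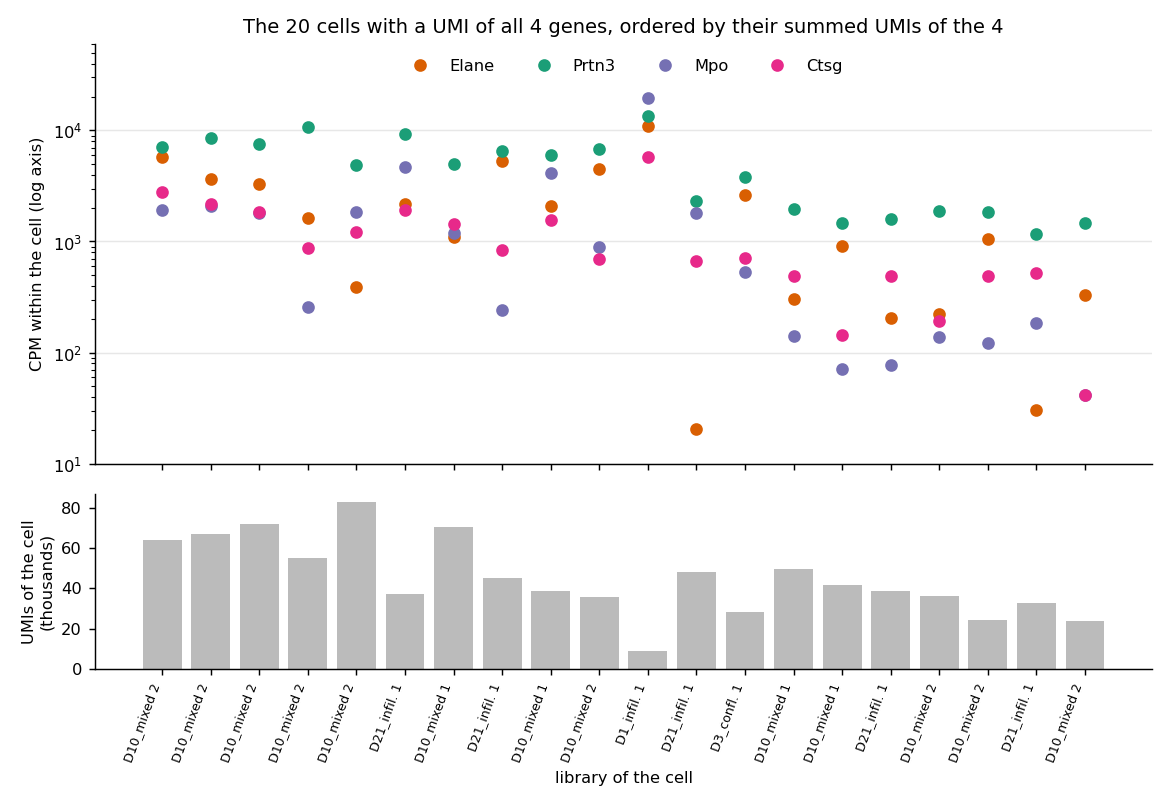
Upper panel, CPM of each gene within each of the 20 cells with a UMI of all 4 (logarithmic axis), ordered from most to fewest summed UMIs of the 4 and labelled by library; lower panel, total UMIs of the cell. Prtn3 is the highest of the 4 in 19 cells, and Mpo in the D1 cell, which has the fewest total UMIs.

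Within the 20 cells the 4 genes made up a median of 0.848% of a cell's UMIs, from 0.187% to 4.98%. Prtn3 had a median of 4899 CPM per cell (1159 to 13482), Elane 1372 (20.7 to 11031), Ctsg 773 (41.6 to 5794) and Mpo 714 (41.6 to 19499). Prtn3 thus varied 11.6-fold between the highest and lowest cell, against 139-fold for Ctsg, 469-fold for Mpo and 534-fold for Elane. The lowest Ctsg, Mpo and Elane values were 1 UMI each, the least that the choice of cells allows, and the lowest Prtn3 value was 38 UMIs, so these ranges rest on single UMIs for the other 3 genes.

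Of the summed UMIs of the 4 genes, Prtn3 was a median of 52.5% per cell, Elane 16.5%, Ctsg 12.1% and Mpo 8.31%. The cell richest in these RNAs, from D10_mixed 2, had 366 Elane, 456 Prtn3, 124 Mpo and 179 Ctsg UMIs among 63952. The D1 cell had 99 Elane, 121 Prtn3, 175 Mpo and 52 Ctsg UMIs among only 8975, and 7.06% of its UMIs were mitochondrial, the most of the 20 (median 1.43%). Some cells had much of one gene and little of another: a cell of D21_infiltrating 1 had 112 Prtn3, 87 Mpo and 32 Ctsg UMIs and 1 Elane UMI.

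Across the 20 cells, log2 CPM of Mpo and Ctsg had a Pearson correlation of 0.87, Prtn3 and Ctsg 0.80, Prtn3 and Mpo 0.78, and Elane and Prtn3 0.77. Elane and Ctsg had 0.53 and Elane and Mpo 0.45. By Spearman rank correlation Elane was nearly as close to Ctsg (0.73) as to Prtn3 (0.78), and was 0.58 with Mpo. The cells share libraries, were chosen for holding all 4, and differ in depth, so these values describe them and carry no test.

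Just outside the set lay 6 cells with 3 of the genes. They had 4 to 42 UMIs of the genes, against 45 to 1125 in the 20 cells. In 5 of the 6 the missing gene was Mpo and in 1 it was Elane. Of the 6, 4 were in cluster 10, 1 in cluster 12 and 1 in the dendritic-like code. When 2 or more UMIs of each gene were required, 17 of the 20 cells remained.

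The 20 cells were also large in RNA content. Their median was 40455 UMIs (8975 to 82928), against 13145 in the other 163 cells of cluster 10 and 5280.5 over all cells. Depth makes 4 genes easier to find, so each cell was thinned at random to the same number of UMIs. At 2000 UMIs per cell, which 26126 cells reached, 9 cells had all 4 genes, and at 5000 UMIs (15989 cells) 12 did. No doublet caller was run here, and the part of doublets in this set was not tested. The defining markers of other cell types in them are given next.

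To describe what else these cells expressed, the 18 in the 3 late libraries (865218 UMIs) were compared with the 192 other macrophage-code cells of the same libraries (1330570 UMIs). Values are means of the 3 libraries, with SD, n = 3. The cells were picked by their counts, so no test was made. Of 3730 genes with enough UMIs, 37.9% were higher in the 18 cells in all 3 libraries and 30.4% lower. The median depth was 43704 UMIs per cell against 4003.5.

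Of 12 other genes for azurophil granule cargo, processing and release, 4 were higher in all 3 libraries and 4 lower. Ms4a3, a membrane gene of granulocyte-monocyte progenitors, was 194 ± 221 CPM against 0.805 ± 1.40, with values of 442, 120 and 19.7 CPM. It had 232 UMIs in 12 of the 18 cells and 1 UMI in the 192 others. Serpinb1a, an intracellular inhibitor of elastase, proteinase 3 and cathepsin G, was 230 ± 33.7 against 49.3 ± 24.8 CPM. Prss57, a further azurophil granule protease, had 25 UMIs in 7 cells against 6 UMIs in the others. It was higher in 2 of the 3 libraries and lower in D21_infiltrating 1, at 0 against 6.29 CPM. Ctsc, which trims and so activates the granule proteases, was lower, at 342 ± 139 against 575 ± 113 CPM. Lyz2 (lysozyme) was also lower, at 3361 ± 712 against 20282 ± 3461 CPM. Cd63, a granule membrane protein, had 0 UMIs against 932 ± 151 CPM. Bpi, an azurophil antibacterial protein, had 0 UMIs in both.

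Genes of later granules were found in part. Of 10 specific granule genes, Ltf, Camp, Ngp, Cd177 and Olfm4 had 0 UMIs in the 18 cells, and Ltf and Ngp had 0 in the 192 others too. Camp (3 UMIs) and Olfm4 (1 UMI) were also near 0 there, so of these 5 only Cd177 (18 UMIs) lay above the floor of 3 UMIs in the others. Lcn2 (lipocalin 2) had 53 UMIs in 5 cells, at 72.1 ± 94.7 against 14.4 ± 19.3 CPM, and was higher in 2 of the 3 libraries. Itgam, an integrin subunit, had 20 UMIs in 9 cells and was lower in all 3, at 22.8 ± 7.60 against 111 ± 34.9 CPM. Hp (haptoglobin) was higher in all 3 libraries, at 633 ± 195 against 522 ± 175 CPM, a difference within the SD, and the oxidase subunit genes Cyba and Cybb were lower. Of 6 gelatinase granule and late neutrophil genes, Mmp9, Mmp25, Retnlg and S100a9 had 0 UMIs, with 0 Mmp9 and Mmp25, 2 Retnlg and 3 S100a9 UMIs in the 192 others. Mmp8, neutrophil collagenase, had 29 UMIs in 10 of the 18 cells, at 33.1 ± 17.6 against 45.6 ± 38.0 CPM. S100a8 had 129 UMIs in 4 of the 18 cells, although S100a9, which encodes its partner in calprotectin, had 0.

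Among 10 transcription factors of granulocytes and monocytes, 3 were higher and 1 lower in all 3 libraries, no more often than the 37.9% and 30.4% of all genes. Myb was 65.4 ± 14.8 against 9.56 ± 14.8 CPM, Irf8, a factor of the monocyte and dendritic lineages, 415 ± 170 against 284 ± 58.8, and Cebpd 178 ± 30.1 against 122 ± 32.9. Spi1 was lower, at 391 ± 97.4 against 530 ± 22.3 CPM. Cebpe, needed for specific granules, had 6 UMIs in the 18 cells, and Gfi1, a transcriptional repressor that neutrophil development requires, had 1.

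Of 11 genes of progenitors and their receptors, Ms4a3, Plac8 and Cdk6 were higher in all 3 libraries, and Csf1r, Csf3r and Sox4 were lower, which in both directions is near or below the share of all genes. Csf1r, the receptor for macrophage colony-stimulating factor, was 70.8 ± 28.4 against 425 ± 138 CPM. Kit, the stem cell factor receptor, had 7 UMIs in 4 cells and 0 in the 192 others.

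All 12 cell cycle genes on the list were higher in all 3 libraries. Stmn1 was 1559 ± 362 against 466 ± 205 CPM, Top2a, which untangles replicated DNA, 548 ± 207 against 188 ± 108, and the mitotic kinase gene Cdk1 214 ± 88.5 against 44.9 ± 17.3. The share of all genes that was higher in the same way was 37.9%. Of the 18 cells, 17 were in cluster 10, and no comparison of these genes with the other cells of that cluster is given here. Whether the difference belongs to the cluster as a whole was not tested.

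Of 8 monocyte markers 4 were higher and 1 lower in all 3 libraries. Ly6c2 was 1380 ± 39.1 against 441 ± 29.9 CPM, Plac8 2871 ± 606 against 1198 ± 594, and F13a1 (a coagulation factor subunit) 726 ± 110 against 296 ± 106. Ccr2 (389 ± 162 against 443 ± 160 CPM), Chil3 (329 ± 192 against 1000 ± 756) and Vcan (13.4 ± 15.5 against 62.5 ± 62.7) were lower in 2 of the 3 libraries. The Fc receptor gene Fcgr1 was lower in all 3. Of 8 macrophage markers 6 were lower and 0 higher in all 3 libraries. Cd68 was 25.3 ± 12.6 against 587 ± 92.5 CPM, and Ms4a7 and Mrc1 had 0 UMIs. Of 9 microglia markers 8 were lower in all 3 libraries. Cx3cr1, the locus behind the sort, had 13 UMIs in 10 of the 18 cells. Of 8 neutrophil markers S100a9, Retnlg, Ly6g and Mmp9 were at 0, and of 8 dendritic markers 5 were at 0. All 5 eosinophil and all 5 erythroid markers were at 0. Of these, Ly6g, Mmp9, 1 dendritic, 4 eosinophil and 2 erythroid markers were at 0 in the 192 other cells too.

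Proteases encoded beside the members were scarce in both sets of cells. Cfd, next to Elane, had 0 UMIs in the 18 cells, as did 6 of the other 7 serine protease genes listed for the Ctsg locus. Of these 8 genes, 5, Cfd among them, were at 0 in the 192 others too. Mcpt8, a basophil protease, had 3 UMIs in the 18 cells and 0 in the others.

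Some of the most abundant RNAs of the surrounding cells were not found in these cells. Apoe (apolipoprotein E) had 0 UMIs in the 18 cells and 49077 ± 10449 CPM in the other macrophage-code cells, at least 14154-fold lower against a floor of 3 UMIs over the 18 cells. C1qb, Cd74, Spp1 and Gpnmb were also at 0. In microglia of the same 3 libraries Apoe was 50945 to 61033 CPM. The sources used here do not give whether free RNA was subtracted from the counts before deposit, and the part of such a step in the values at 0 was not tested.

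**Figure D3:**
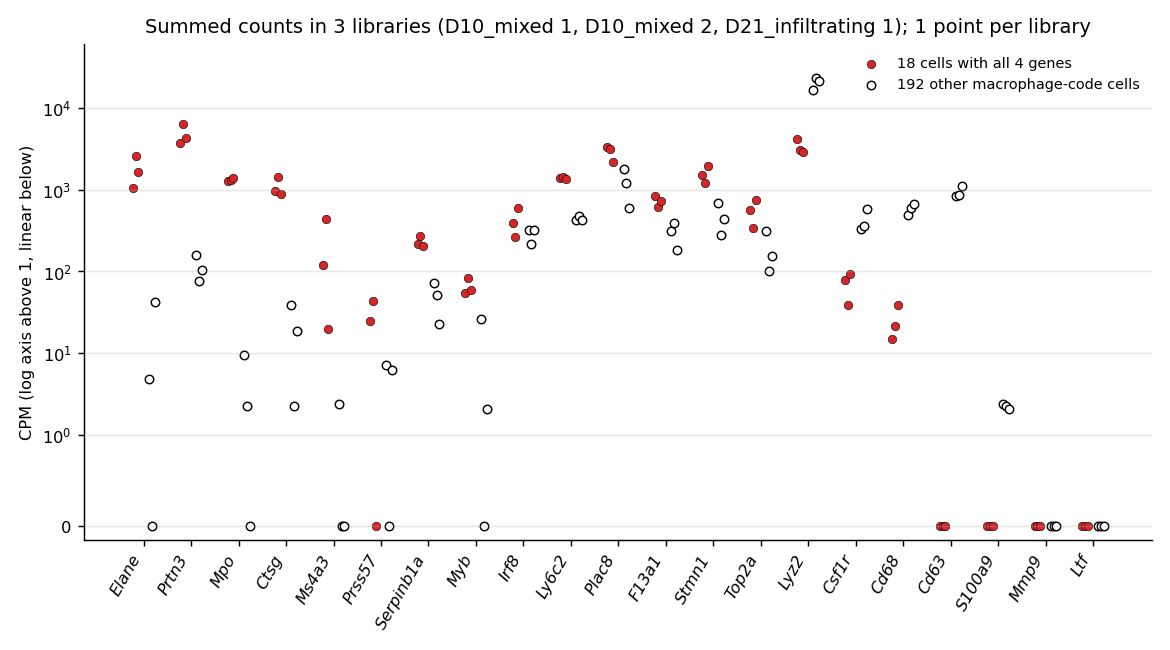
CPM of 21 genes in the 18 cells with all 4 genes (filled) and in the 192 other macrophage-code cells (open) of the 3 late libraries, 1 point per library; the y axis is logarithmic above 1 CPM and linear below. Ms4a3, Serpinb1a, Myb and the cell cycle genes lie higher in the filled points, Lyz2, Csf1r and Cd68 lie lower, and Cd63, S100a9, Mmp9 and Ltf are at 0 in them.

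Outside the 20 cells only Prtn3 remained in many cells. It had 2051 UMIs in 1139 further cells, of which 1104 had no other of the 4 genes. Elane had 62 UMIs in 40 cells, Mpo 39 in 33 cells and Ctsg 150 in 113 cells. Most of these Prtn3 cells had little: 70.7% had 1 UMI, 174 cells had 3 or more, 15 had 10 or more, and the highest had 33. By code, 881 were macrophages, 162 dendritic-like, 57 neutrophil-like and 39 microglia.

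Prtn3 differed between the cell types in this broad, low form. Without the 20 cells, a UMI was found in 6.87% of macrophage-code cells (exact 95% interval 6.44 to 7.32; 7.02% with them), 5.97% of dendritic-like cells (5.11 to 6.93), 2.69% of neutrophil-like cells (2.05 to 3.48) and 0.293% of microglia (0.209 to 0.401). Their median depths were 9140, 11361, 2154 and 3062 UMIs. These intervals treat cells as independent, and the spread between libraries was wider. In libraries with 20 or more cells of the code, the share was 0% to 20.4% in macrophages (median 5.03%). It was 0% to 14.3% in dendritic-like cells (5.62%), 0.712% to 4.79% in neutrophil-like cells (3.14%) and 0% to 1.39% in microglia (0%). After thinning to 2000 UMIs per cell, which left out 553, 61, 809 and 3409 cells, the shares were 2.18%, 1.70%, 2.30% and 0.152%. Macrophages, dendritic-like and neutrophil-like cells were thus close to each other at equal depth, and microglia were lowest at either depth.

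In CPM without the 20 cells, Prtn3 was 13.2 in macrophages, 14.7 in neutrophil-like cells, 11.3 in dendritic-like cells and 0.833 in microglia. Across libraries with 20 or more cells of the code, the values were 0 to 159 in 20 macrophage sums (median 8.58), 3.51 to 22.9 in 5 neutrophil-like sums (median 14.6) and 0 to 52.1 in 10 dendritic-like sums (median 15.3). In 19 microglial sums they were 0 to 3.27, with a median of 0. The first 3 cell types overlapped over libraries. 

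Free RNA puts some UMIs into cells that do not make a gene, and microglia are not known to make Prtn3. In the 14 libraries with 20 or more cells of both codes, a Prtn3 UMI was found in 4.66% of macrophages outside the 20 cells (4.07 to 5.30) and 0.330% of microglia (0.228 to 0.464), at median depths of 7269 and 2833 UMIs. After thinning to 2000 UMIs the shares were 1.61% and 0.181%, and the CPM was higher in macrophages in 12 of the 14. The microglial share was uneven over libraries. D10_mixed 1 and D10_mixed 2, which held 4 and 9 of the 20 cells, gave 16 and 12 of the 34 microglial Prtn3 UMIs. They also gave 5 and 9 of the 14 microglial Elane UMIs and 4 and 3 of the 8 microglial Mpo UMIs. The 6 libraries with under 20 microglia held 868 of the 1139 Prtn3 cells (76.2%), and microglia give no background for these.

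Neutrophil-like cells, which had all 8 neutrophil markers, held almost none of the other genes. In 2116 cells Elane had 0 UMIs, which by the floor of 3 counts allows a share of cells with a UMI of up to 0.142% (exact 95% upper limit 0.174%), Mpo had 3 UMIs and Ctsg had 1. At their depth, Elane up to 0.623 CPM would not have been detectable.

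**Figure D4:**
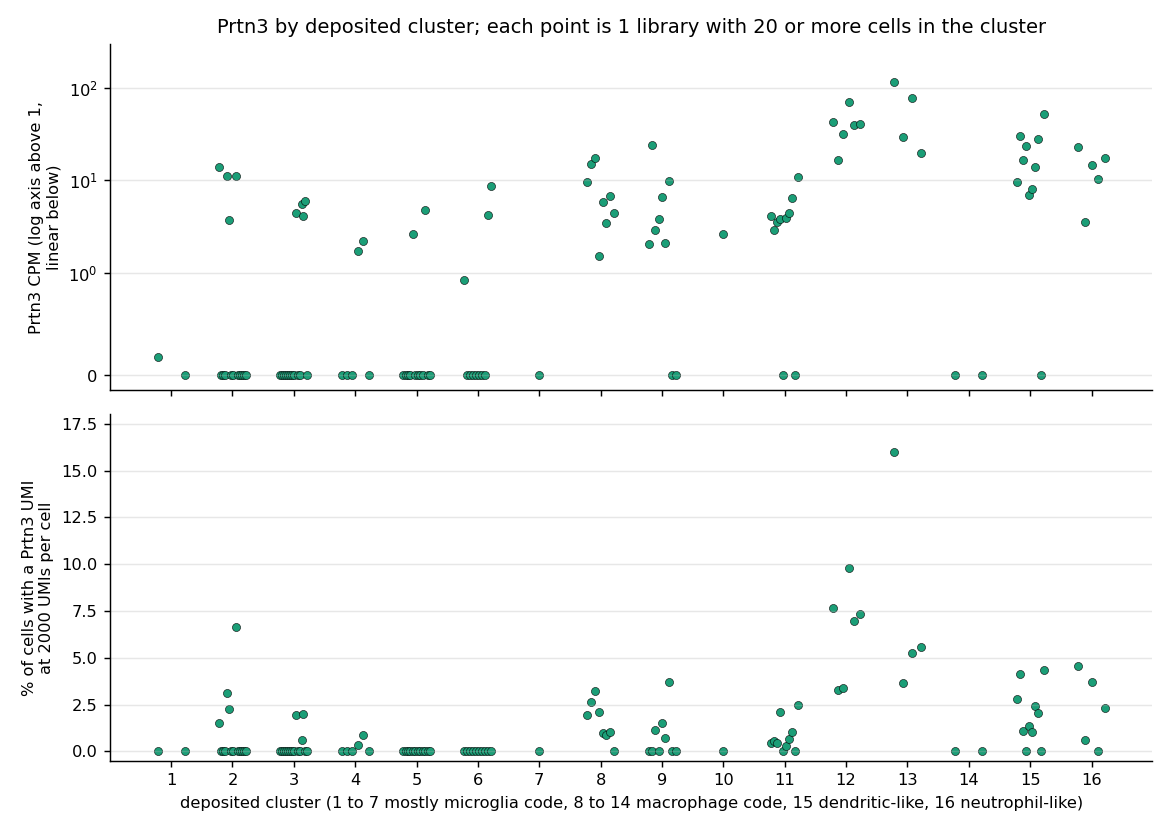
Upper panel, Prtn3 CPM in each library with 20 or more cells of a deposited cluster (1 point per library; logarithmic above 1 CPM and linear below); lower panel, percent of cells with a Prtn3 UMI after thinning to 2000 UMIs per cell. Clusters 12 and 13 have the highest medians over libraries in both panels, and single points of other clusters lie within their ranges. Cluster 10 has 1 point, D3_mixed 3 at 2.64 CPM, because no other library had 20 cells of it.

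Among clusters, 12 and 13 had the highest share of cells with this low Prtn3. In cluster 12 (2043 cells) 20.9% of cells had a UMI (19.2 to 22.7), and the CPM was 39.8. Over its 6 libraries it was 16.4 to 70.1 CPM with a median of 40.3, and the share was 9.29% to 23.9%. Without its 1 cell with all 4 genes, cluster 13 (233 cells) had 19.3% and 64.1 CPM, with 19.6 to 117 CPM over 4 libraries. The 163 other cells of cluster 10 had 57.6 CPM but a share of 9.82% (5.72 to 15.5). Of their 135 UMIs, the 4 cells with 3 of the genes held 33, 24, 8 and 4. The 107 cluster 10 cells of D3_mixed 3 were at 2.64 CPM. Cluster 8 had 6.69% and 8.57 CPM, cluster 9 4.11% and 5.57 CPM, and cluster 11 2.82% and 4.33 CPM.

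By library, cluster 12 lay above cluster 11 (0 to 10.9 CPM over 10 libraries) with no overlap, and it overlapped with cluster 13. It met cluster 8 (1.53 to 17.4 over 8 libraries) only at its lowest library, D1_infiltrating 2. Cluster 12 also overlapped with cluster 9 (0 to 23.9 over 9 libraries), cluster 16 (3.51 to 22.9 over 5) and cluster 15 (0 to 52.1 over 10). After thinning to 2000 UMIs, cluster 12 kept a share of 6.86%, cluster 13 7.42%, cluster 8 1.62% and cluster 11 0.675%. Cluster 14, with 118 shallow cells, had 0 UMIs of all 4 genes. Without the 20 cells, Ctsg was highest in the 163 other cells of cluster 10, at 11.9 CPM (9 cells with a UMI). Of those 28 UMIs, the 4 cells with 3 of the genes held 7, 7, 7 and 2, so this rank rests on few cells. Ctsg was 2.22 CPM in cluster 12 (34 cells), 1.73 in cluster 13 (3 cells) and 1.27 in cluster 9 (35 cells, 1 UMI each).

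Cells of cluster 12 with and without Prtn3 were compared after thinning each to 5000 UMIs, in the 3 libraries with 20 or more cells on each side. D1_infiltrating 1 had 72 with and 415 without, D3_conflict 1 had 106 and 635, and D3_infiltrating 1 had 50 and 315. Median depths before thinning differed little, 9793.5 to 11036 UMIs with and 9152 to 10950 without. Differences are on the log2(CPM + 50) scale, as the median of the 3 libraries, and carry no test because the cells were split by a count.

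Monocyte markers leaned towards the cells with Prtn3: 6 of 8 were higher in all 3 libraries, where 20.2% of 2641 genes were higher and 22% lower in the same way. Ccr2, the chemokine receptor by which monocytes leave the marrow, differed by 0.38, F13a1 by 0.35 and Ly6c2 by 0.27. Fcgr1 was lower in all 3, by a log2 difference of -0.36. The genes furthest up, named after their values were seen, were Id3 (0.82), Selenop (0.69), Socs3 (0.66) and Hpgd (0.66). Those furthest down in all 3 libraries were Hmox1, haem oxygenase 1 (-1.39), Basp1 (-1.15), H2-Ab1 (-1.04), Cd74 (-0.98), Il7r (-0.88) and Fth1, ferritin heavy chain (-0.81). For H2-Ab1 and Cd74 the smallest of the 3 differences was -0.02. Of the 12 other azurophil genes 3 were higher and 2 lower in all 3 libraries.

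The genes whose level was most like the summed 4 genes were sought over 115 sums of a cluster in a library with 20 or more cells, by Pearson correlation of log2(CPM + 1). Among the 10 closest were Napsa (0.78), Plbd1 (0.76), Rara (0.76), Cytip (0.75), Plekhg3 (0.75), Emb (0.74), Ifitm6 (0.73), Sirpb1c (0.73) and Hp (0.73). The sum of the 4 was close to Prtn3 itself (0.96) and further from Ctsg (0.42), Elane (0.37) and Mpo (0.28). Sums from one library share its depth and cells, so the correlations carry no p. Of the 20 cells, 0 enter these sums, since each lies in a cluster with under 20 cells in its library, so the likeness is to Prtn3 outside them.

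The last question was whether infiltrating and resident libraries differed. The counts of all cells of a library were summed and 7 infiltrating were compared with 5 resident libraries, with time point and sex as terms. Prtn3 was 4.59 to 827 CPM in the infiltrating libraries, with a median of 11.5 and UMIs in 7 of 7. In the resident libraries it was 0, 0, 2.10, 2.94 and 4.58 CPM, with UMIs in 3 of 5. The groups did not overlap, though the lowest infiltrating value (4.59) and the highest resident value (4.58) were nearly equal.

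Prtn3 was higher in infiltrating libraries by a log2 fold change of 2.20 (SE 0.57, edgeR quasi-likelihood test, adjusted p = 0.0384). The genes were chosen because their levels differed between cell types, and the sorts differed in cell types. This p is therefore not independent of that choice. Of 11548 genes tested, 597 (5.17%) were called higher in infiltrating libraries and 698 lower, so 11.2% were called either way, and Prtn3 was 1 of the 4 members called. The median log2 fold change over all genes tested was 0.03. No median is given over the members, since 2 of them were at 0 in every resident library. The call was lost on leaving out any 1 of 7 of the 12 libraries. The edgeR adjusted p was 0.132 without D2_infiltrating 1, 0.146 without D2_resident 1, 0.0969 without D3_infiltrating 1 and 0.134 without D3_resident 1. It was 0.0618 without D10_infiltrating 1, 0.0722 without D10_infiltrating 2 and 0.0522 without D21_infiltrating 1. The log2 fold change without a library ran from 1.61 to 2.89. The call was also lost with sequencing pool in place of time point (edgeR adjusted p = 0.148) and with D3_conflict 1 taken as resident, as its sort label says (0.172). The call was kept with that library taken as infiltrating, as its title says (log2 fold change 2.15, edgeR adjusted p = 0.0198).

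Elane had UMIs in 6 of 7 infiltrating libraries and 0 of 5 resident ones (edgeR adjusted p = 0.539). Mpo had UMIs in 4 of 7 and 0 of 5 (edgeR adjusted p = 0.435). No fold is given for these because all resident libraries were at 0. Ctsg had UMIs in 6 of 7 and 2 of 5, with a log2 fold change of 2.26 (SE 1.40, edgeR adjusted p = 0.351). None of these 3 passed the threshold, and without D10_infiltrating 1 Ctsg did (edgeR adjusted p = 0.0441). Mpo also passed without that library (edgeR adjusted p = 0.0303), but against a group at 0, so nothing is read from it. D1_infiltrating 1 and D21_infiltrating 1 held 182 and 284 of the 469 infiltrating Mpo UMIs, and 74 and 188 of the 281 Ctsg UMIs.

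D2, D3 and D10 were the only time points with both sorts. Prtn3 was 16.5 CPM in the infiltrating and 2.94 in the resident library at D2. It was 11.5 in the infiltrating library and 2.10 and 4.58 in the resident libraries at D3, and 10.3 and 4.59 against 0 at D10. Every infiltrating value was above the resident values of its time point. Within a sequencing pool, infiltrating and resident libraries of the same day and sex could be set side by side at D3 (11.5 against 4.58) and D10 (10.3 against 0). With these 4 libraries and the pair as a term, Prtn3 differed by a log2 fold change of 2.22 (SE 0.86, edgeR adjusted p = 0.229), which did not pass the threshold.

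A library sum cannot tell more Prtn3 cells from more Prtn3 per cell, and the sorts differed in composition. The macrophage code made up 55.6% to 90.3% of infiltrating and 0% to 25.2% of resident libraries. Within that code, Prtn3 was 16.8 CPM in the infiltrating and 11.4 in the resident library at D2, and 14.6 against 5.63 and 6.99 at D3. At D10 it was 8.18 and 8.27 against 0, where the floor of 3 counts was 2.78 CPM. The D3 value of 5.63 was 2 UMIs, under its floor of 8.44 CPM. The infiltrating values were the higher at each of the 3 time points. This was not tested, since the comparison was fixed for whole libraries.

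**Figure D5:**
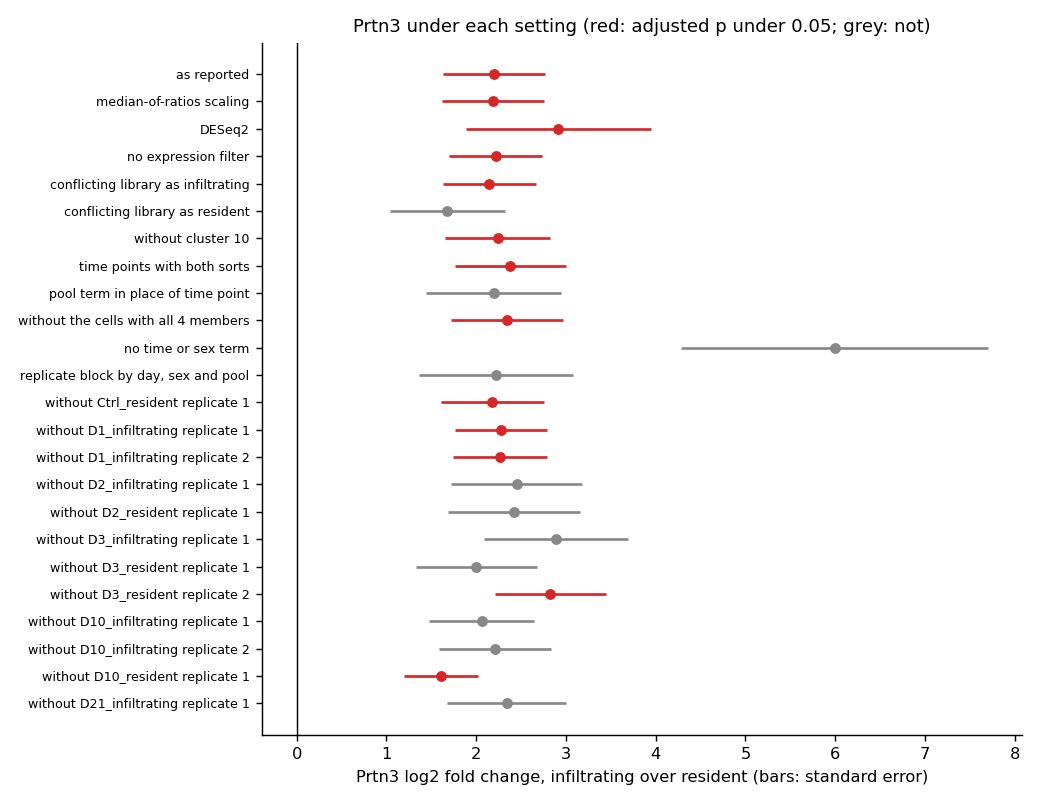
Prtn3 log2 fold change of infiltrating over resident libraries under each setting of the test, with bars for the standard error; red points have an adjusted p under 0.05 and grey points do not. All 24 values lie above 0, from 1.61 to 5.99, and 11 of the 23 alternatives are grey.

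Other genes of the pathway were read in the same test, where 5.17% of all genes were called higher and 11.2% either way. Where a list had 1 call in a direction, nothing is read from it about the list. With D3_conflict 1 taken as resident the test called 0 genes (2525 at an unadjusted p under 0.05), so every edgeR call named here is lost under that setting. With that library taken as infiltrating, as its title says, the test called 1836 genes. Of the 12 other azurophil genes, 10 were tested: Serpinb1a was higher in infiltrating libraries (log2 2.60, SE 0.42, edgeR adjusted p = 0.0071), and Gusb, beta-glucuronidase, was lower (log2 -1.40). Of 10 specific granule genes, Camp, Ngp, Hp and Cybb were higher and none was lower, with Hp at a log2 of 4.0. D2_infiltrating 1 alone held 360 of the 365 Camp UMIs and 541 of the 555 Ngp UMIs of the infiltrating libraries. Of 6 gelatinase granule genes Mmp25 was higher (3.48).

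Of 9 tested transcription factors Klf4 was higher (2.33), and of 10 progenitor genes Kit (3.72) and Csf2rb (1.42) were higher and Cd34 (-3.25) and Csf1r (-1.52) lower. Of 10 tested protease inhibitors 4 were higher (Serpinb2, Serpinb1a, Timp1 and Slpi) and 3 lower (Timp2, Cst3 and Serpinb6a). Of 12 cell cycle genes 6 were lower in infiltrating libraries and 0 higher. Among markers, 8 of 9 for microglia were lower, and 5 of 8 for dendritic cells and 3 of 8 for monocytes were higher. Of 8 neutrophil markers Ly6g passed, but it had 0 UMIs in the resident libraries and 162 of its 184 infiltrating UMIs in D2_infiltrating 1, so nothing is read from it. The part of these cell types in the Prtn3 difference was not tested.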

How the data were processed

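The deposited matrices hold raw UMI counts by the authors, made with Cell Ranger 3.1.0 on GRCm38 (mm10) per the submitters' processing notes, and a cell table with clusters, cell type codes and the percent of mitochondrial counts. The annotation, cell filters and any subtraction of free RNA or doublets are not given in the sources used here. Cell sums equalled the deposited totals in 100% of cells. No cell was removed, and 2 whole-series tables were not used.

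Raw counts were summed per library, cell type, cluster or time point and expressed as CPM. Shares have exact (Clopper-Pearson) 95% intervals, which treat cells as independent and leave out the spread between libraries. A sum entered a range at 20 or more cells, and the floor was 3 counts. Infiltrating and resident libraries were compared with edgeR 4.0.16 in R 4.3.3 (TMM, filterByExpr, quasi-likelihood test, 2-sided, Benjamini-Hochberg over all genes tested, threshold 0.05). The same test was also run on simulated data, and its outcome is not reported here. DESeq2 1.42.0 was an alternative. Python 3.11.15, numpy 2.4.6 and scipy 1.17.1 did the rest. Nothing in the labels says that libraries of a group came from separate mice, so p-values measure only the spread between these libraries.

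The 4 genes and all gene lists were chosen with earlier results of these data known. The rule named the 4 genes, up to 4 called genes per list, list genes at 0, and the 10 genes most like the 4. Other named genes were chosen after their values were seen. Some genes that the rule or lists include are not reported here.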

Additional observations from a re-analysis of the deposited data

Results flagged for a closer look

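D21_infiltrating 1 stood apart from the other 6 infiltrating libraries for all 4 genes. Elane was 320 CPM there, against 5.39 in the next library, Prtn3 827 against 24.4, Mpo 255 against 9.18 and Ctsg 169 against 3.73. This library had the fewest cells of all, 155, and 5 of them had UMIs of all 4 genes. Ctsg in D3_resident 1, at 1.05 CPM, stood apart from the other 4 resident libraries, whose highest value was 0.300 CPM, but it was 1 UMI. Such a gap was looked for gene by gene in the 7 infiltrating and the 5 resident libraries. Chance gives about 1 in 20, but the 4 gaps of D21_infiltrating 1 come from the same library and are not separate.

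D3_conflict 1, which was left out of the reported comparison between sorts because its title and its sort label disagree, held all 4 genes above the values of the control libraries. The control libraries held only microglia-code cells. D3_conflict 1 had 8 of these and 2367 of the macrophage code among 3800 cells, and the part of this difference was not tested. Elane was 2.46 CPM against 0 in both controls, and Prtn3 was 16.9 against at most 0.179. Mpo was 0.801 against at most 0.179 and Ctsg 1.51 against at most 0.357. It held 1 cell with all 4 genes, and without that cell Elane was 0.185, Prtn3 13.6, Mpo 0.339 and Ctsg 0.894 CPM. Ctrl_resident 1 had 0 UMIs of the 4 genes, but its floor of 3 counts was 1.62 CPM, above the Mpo and Ctsg values.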

How the results depend on the processing

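The count of genes called between infiltrating and resident libraries (1295) stayed within 1.5 times under 14 of 23 alternatives. With D3_conflict 1 added as infiltrating it was 1836. It was 0 with D3_conflict 1 added as resident (edgeR, 2525 genes at an unadjusted p under 0.05; DESeq2 was not run on that set and called 1567 on the reported one), 468 with sequencing pool in place of time point and 716 with no time or sex term, the last chosen after seeing the data. Leaving out 1 library gave 219 to 1910 calls, with 251 without D2_infiltrating 1, 219 without D2_resident 1, 467 without D3_infiltrating 1, 532 without D3_resident 1 and 601 without D3_resident 2. The share of calls that were higher, 597 of 1295, was 103 of 468 with the pool term.

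Prtn3 was higher in infiltrating libraries under all 23 alternatives run. It lost its call under 11 (edgeR adjusted p 0.0145 to 0.229 over the 22 edgeR alternatives, 0.0374 in DESeq2): conflicting library as resident (0.172), pool term (0.148), pair term (0.229), no time or sex term (0.0502), and without D2_infiltrating 1 (0.132), D2_resident 1 (0.146), D3_infiltrating 1 (0.0969), D3_resident 1 (0.134), D10_infiltrating 1 (0.0618), D10_infiltrating 2 (0.0722) or D21_infiltrating 1 (0.0522). The cause was not tested. Without the 20 cells the log2 fold change was 2.34 (edgeR adjusted p = 0.0413).

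The 20 cells with all 4 genes became 9 at 2000 and 12 at 5000 UMIs per cell, the latter chosen after seeing the data, where fewer cells and UMIs enter. At 2000 UMIs per cell, and with 2 or more UMIs required, the Prtn3 shares, the 20 cells included, were 2.34% and 2.20% in macrophages, 1.70% and 2.21% in dendritic-like cells and 0.152% and 0.0226% in microglia. In neutrophil-like cells 2 or more UMIs were found in 0.378%.

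The titles carry no replicate numbers that pair the sorts, but 2 pairs of libraries share day, sex and sequencing pool. A replicate block by these pairs, chosen after seeing the data, left 4 libraries with 1 residual degree of freedom and called 503 genes (208 higher); the labels do not say that a pair came from the same mice. The planned comparison of cluster 10 cells with and without the 4 genes was not run, since 0 libraries had 5 cells on each side and 3 were required.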
